A study of Mus musculus with 10 samples.

Results

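A set of 9 genes of adrenergic signalling in heart muscle cells is described here, chosen by gene symbol, with earlier results of these data known. They are the receptors Adrb1, Adra1a and Adra1b, the stimulatory G protein gene Gnas, the adenylyl cyclases Adcy5 and Adcy6, the phosphodiesterases Pde3a and Pde4d, and the receptor kinase gene Adrbk1, also called Grk2. All 9 were found among the 23337 genes of the authors' deposited table, and all 9 passed the authors' filter on low values, which left 14056 genes with an adjusted p-value. The cells were cardiomyocytes of wild-type mice at postnatal day 14, sorted by fluorescence after collagenase perfusion of the heart. On postnatal day 1 the mice had received 5e+08 viral genomes per gram of an AAV9 vector encoding dnMKL1 together with GFP, or only GFP, and each group had 5 libraries. The cardiac troponin T promoter drove expression in both groups, so that the GFP group shares the virus, the promoter and GFP with the dnMKL1 group. dnMKL1 is a dominant-negative form of MKL1 (MRTF-A), a coactivator of serum response factor. Strain and sex are not given in the sources used here.

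In the heart, noradrenaline and adrenaline bind beta-adrenergic receptors, which act through the stimulatory G protein to switch on adenylyl cyclase. The cyclic AMP (cAMP) made by the cyclase activates protein kinase A, which phosphorylates calcium channels, phospholamban and sarcomere proteins, so that the heart beats faster and with more force. Phosphodiesterases break cAMP down, and receptor kinases with arrestins uncouple the receptors when stimulation lasts. Alpha-1 receptors act through another G protein class, Gq, and phospholipase C, and are known for a part in cardiomyocyte growth.

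The authors' deposited table holds for each gene a mean over all 10 libraries, a log2 fold change with its standard error (SE) and Wald p-values, so values per library were not analysed here. Estimated library totals ran from 8802947 to 17123500 counts among GFP libraries and from 8835151 to 17228537 among dnMKL1 libraries. Mkl1, from which the vector's product derives, had a log2 fold change of 9.80 (SE 0.15) in the authors' deposited table, and positive values were therefore read as higher in dnMKL1 libraries. Group means given below are implied means, computed from the overall mean and the fold change in normalized counts, which are counts divided by the authors' size factors. Fold changes are relative to that scaling. Setting both groups to the same total of implied means adds 0.29 to every log2 fold change. Defining markers of cardiomyocytes were abundant, with summed implied means of 2062886 under GFP and 1172435 under dnMKL1, and 8 of 12 were lower and 0 higher at an adjusted p-value under 0.05. Of 10 fibroblast markers 5 were higher and 0 lower, with summed implied means of 5163 and 8808. Higher were Col1a1, Col1a2, Col3a1, Gsn (876 and 1951) and Fbln1 (748 and 1944). Dcn, Lum, Pdgfra, Tcf21 and Postn were not called. None of 10 endothelial markers was called (3905 and 3925), and 1 of 8 macrophage markers was higher (149 and 132). Of 9 mural markers 2 were higher, Cspg4 and Myh11, and 2 lower, Des and Acta2 (sums of 48753 and 41229). Des (30545 and 25358), Acta2 (10454 and 4999) and Abcc9 (6332 and 7773) make up most of those sums and are not specific to mural cells. The mural sums are therefore no measure of those cells. Over all genes tested 16.6% were called higher and 17.4% lower. Of 4 Schwann cell and sympathetic neuron markers with an adjusted p-value 1 was higher and 1 lower, with sums of 134 and 113 over all 8 listed. Adipocyte markers were near 0, with Adipoq and Lep listed at 0. Whether these shifts have a part in the results on the 9 genes was not tested, and in bulk libraries fewer cells of a type and less RNA per cell cannot be told apart.

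Of the 9 genes, 3 changed at an adjusted p-value under 0.05, which is 33.3% of them, against 34.1% of all genes tested. Pde3a was higher in dnMKL1 libraries, and Adra1a and Adcy5 were lower. Of all genes tested 16.6% were called higher and 17.4% lower. At an unadjusted p-value under 0.05 there were 4 of the 9, with Adrb1 added. The median log2 fold change of the 9 genes, computed from the authors' deposited table, was -0.05 and that of all genes tested was 0.021, and the median absolute values were 0.30 and 0.29. The share of called genes and the typical size of change in these 9 genes were thus close to those of the whole table. That table reaches down to a mean of 1.31, and the share called differs with the mean. With a minimum mean of 100, 2 of the 8 genes left were called, beside 3897 of all 8641. The lists below are also set against the whole table, without matching of means. The direction depended on scaling: with equal totals 6 of the 9 were called, 5 higher and 1 lower, while of all genes tested 47.0% were then called, 40.4% higher and 6.60% lower.

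**Figure D1:**
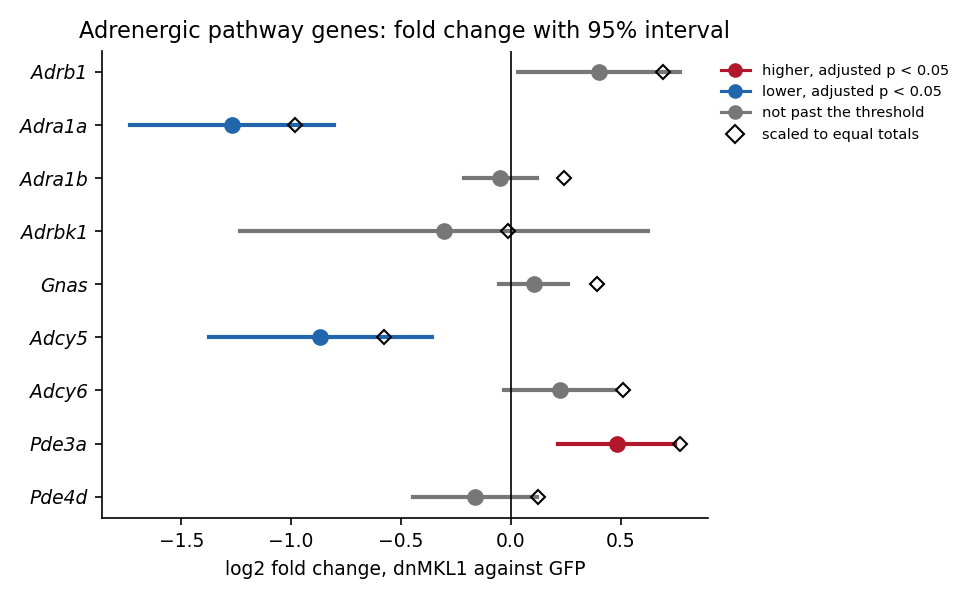
Log2 fold change (dnMKL1 against GFP, horizontal axis) of each of the 9 genes in the authors' deposited table, with the 95% Wald interval as a line; red and blue mark genes higher or lower at an adjusted p-value under 0.05, grey the others. Open diamonds show the value after scaling both groups to the same total, which adds 0.29 and moves Adra1b and Pde4d from below 0 to above it. Adra1a and Adcy5 lie below 0 and Pde3a above 0 with their whole intervals, and the interval of Adrbk1, from -1.23 to 0.63, is the widest of the 9.

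**Figure D2:**
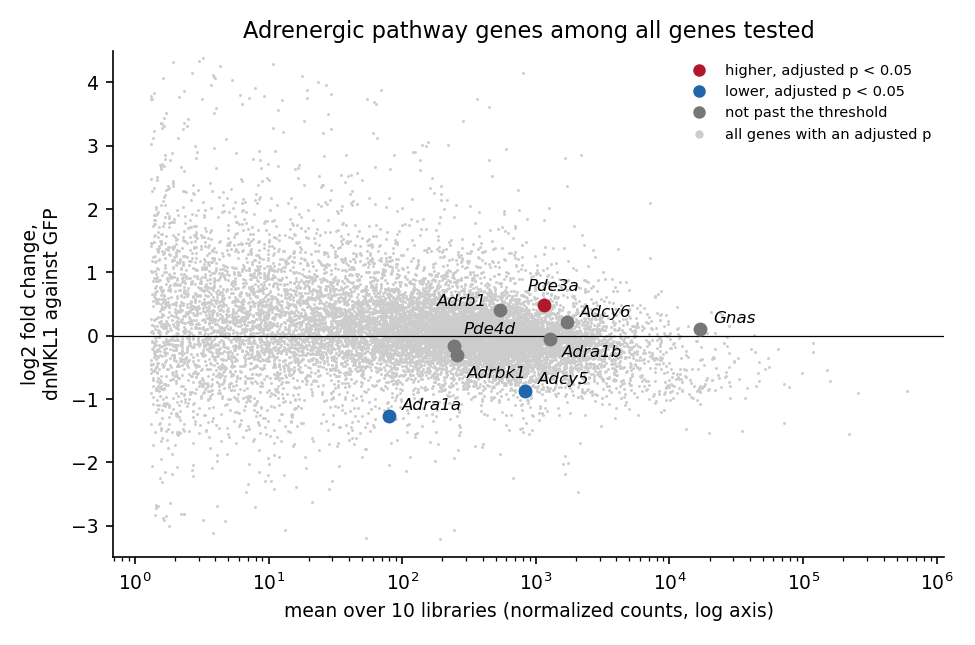
Log2 fold change (vertical axis) against the mean over 10 libraries in normalized counts (horizontal log axis) for all genes with an adjusted p-value (light grey, 25 of them outside the plotted range) and the 9 genes (large points). Of the 9, Adra1a at -1.27 lies farthest from 0, and Gnas has the highest mean, 17053.

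The stretches of 250 bases before the start site of Adrb1 and Adcy5 are shown because Adrb1 is the main cardiac receptor of the pathway and Adcy5 is the called gene with an entry in the RefSeq promoter table (GRCm38.p6). The sequences below are written 5′ to 3′ on the plus strand, for Adrb1 chr19:56721867-56722116 and for Adcy5 chr16:35154614-35154863. Capitals mark TGACG, the core of the cAMP response element, which was found in the Adrb1 stretch.
Adrb1: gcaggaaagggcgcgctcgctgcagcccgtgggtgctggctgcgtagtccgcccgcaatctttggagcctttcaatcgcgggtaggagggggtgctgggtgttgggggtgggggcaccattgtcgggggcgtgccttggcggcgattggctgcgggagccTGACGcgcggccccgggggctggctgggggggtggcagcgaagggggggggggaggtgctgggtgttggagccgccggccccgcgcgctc
Adcy5: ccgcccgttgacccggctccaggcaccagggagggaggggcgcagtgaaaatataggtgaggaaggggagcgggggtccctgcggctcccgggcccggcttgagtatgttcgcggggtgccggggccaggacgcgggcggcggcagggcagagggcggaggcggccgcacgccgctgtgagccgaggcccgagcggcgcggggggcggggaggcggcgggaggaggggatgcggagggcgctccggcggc
Both stretches are rich in G and C, at 74.0% for Adrb1 and 78.0% for Adcy5, against a median of 52.4% over all promoters in the table. The table held 9 start sites of 5 of the 9 genes (Adrb1, Adra1b, Adcy5, Gnas and Pde4d). Both strands of each stretch were searched for the CArG box, the site of serum response factor, for the full cAMP response element and for its shorter core TGACG. The CArG box matched 0 of these 9 stretches and 1.47% of all 32851 stretches of this length. The full cAMP response element also matched 0 of the 9, and 1.55% of all. The core, which is contained in the full element, matched 1 stretch of Adrb1, at 90 bases before the start, and 3 of the 4 of Gnas, of which 2 overlap and share the match, beside 17.8% of all stretches. The Adcy5 stretch held neither of these motifs, nor the letters GATA or the E-box CANNTG, which matched 53.6% and 66.2% of all stretches. GATA was found before start sites of Adra1b, Gnas and Pde4d, and the E-box before those of Gnas and Pde4d. These matches describe letters in the windows only.

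Among the receptors, the alpha-1A receptor gene Adra1a fell, and Adra1b and Adrb1 did not pass the threshold. Positions are those of GENCODE M21 on GRCm38. Adra1a (chr14:66635251-66771168, plus strand) had implied means of 114 normalized counts with GFP alone and 47.1 with dnMKL1. The authors' deposited table gave it a log2 fold change of -1.27 (SE 0.24), with a 95% interval from -1.73 to -0.80 and an adjusted p of 1.1e-06, so that the level was 0.415 of that in GFP libraries. The absolute change was larger than that of 93.6% of all genes tested, and the call held under the 9 alternatives that kept the gene, with equal totals at -0.98 (adjusted p = 1.6e-04 from the shifted values of the authors' deposited table). The alpha-1B receptor gene Adra1b (chr11:43774606-43901210, minus strand) had implied means of 1291 and 1250. The authors' deposited table gave it a log2 fold change of -0.05 (SE 0.08) and an adjusted p of 0.737, with a 95% interval from -0.21 to 0.12. For this receptor the interval covers changes between 13.7% lower and 8.55% higher, and with equal totals the value from the authors' deposited table turned to 0.24 (adjusted p = 0.0115). The 95% intervals of Adra1a and Adra1b did not overlap.

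The beta-1 receptor gene Adrb1 (chr19:56722199-56733113, plus strand), the main beta receptor of cardiomyocytes, had implied means of 463 with GFP alone and 612 with dnMKL1. For Adrb1 the authors' deposited table gave a log2 fold change of 0.40 (SE 0.19), with a 95% interval from 0.03 to 0.77. The unadjusted p was 0.0322 and the adjusted p 0.0844, above the threshold. With equal totals its log2 fold change was 0.69 and the adjusted p 8.9e-04, so that the call on Adrb1 depends on the scaling. Further adrenergic receptors had low means. Adra1d, the third alpha-1 receptor gene, had a mean of 15.6 and fell by 1.15 on the log2 scale (SE 0.35, adjusted p = 0.00399) in the authors' deposited table. Adra2b had a mean of 2.56 and an adjusted p of 0.833, and Adrb3, Adra2a and Adra2c had means of 0.387, 0.177 and 0.495 in the authors' deposited table and no adjusted p-value. Of the 3 alpha-1 receptor genes, the 2 with low means thus fell and the abundant Adra1b was not called.

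The receptor kinase gene Adrbk1 (listed as Grk2 in GENCODE M21, chr19:4286001-4306222, minus strand) encodes the kinase that phosphorylates agonist-bound beta receptors. It had implied means of 283 and 229 and a log2 fold change of -0.30 (SE 0.47, adjusted p = 0.695) in the authors' deposited table. Its 95% interval ran from -1.23 to 0.63, or from 57.4% lower to 54.3% higher, so that a change of moderate size in either direction was not detectable. Of 6 other receptor kinase and arrestin genes 4 were higher and 0 lower, or 66.7% called against 34.1% of all genes tested, with a median log2 fold change of 0.40 against 0.021. No test of this list was made. Grk5, another kinase of G protein-coupled receptors abundant in heart, went from an implied mean of 104 to 381, with a log2 fold change of 1.87 (SE 0.18, adjusted p = 8.9e-22) in the authors' deposited table. Adrbk2 (Grk3) rose by 0.36 (SE 0.09, adjusted p = 9.6e-04) and Grk6 by 0.45 (SE 0.16, adjusted p = 0.0154) on the log2 scale of the authors' deposited table. Arrb1, which encodes beta-arrestin 1, rose by 0.52 (SE 0.15, adjusted p = 0.00212) in the authors' deposited table. Grk4 and Arrb2 had means of 21.6 and 10.7 and were not called, with log2 fold changes of 0.24 (SE 0.29) and -0.02 (SE 0.38) in the authors' deposited table. The 4 calls also held with equal totals. The 95% interval of Grk5, from 1.51 to 2.23, did not overlap that of Adrbk1.

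Gnas (chr2:174284320-174346744, plus strand) encodes the alpha subunit of the stimulatory G protein and was the most abundant of the 9 genes. Its implied means were 16442 and 17664, and the authors' deposited table gave a log2 fold change of 0.10 (SE 0.08, adjusted p = 0.342). The 95% interval covered changes from 3.50% lower to 19.6% higher. Equal totals moved the value from the authors' deposited table to 0.39 (adjusted p = 4.9e-06). The locus is imprinted and produces several overlapping transcripts, which a count per gene does not separate. Exons of Nespas lie on the opposite strand within it, and Nespas had a mean of 1.01 normalized counts in the authors' deposited table. Of 22 other G protein genes with an adjusted p-value 7 were higher and 4 lower, beside 16.6% and 17.4% of all genes tested, with a median of 0.13. The 22 include Ric8b, which is not a subunit and is among the 4 lower genes. Gnai2, an inhibitory alpha subunit and the most abundant of the 22, rose by 0.52 (SE 0.10, adjusted p = 2.4e-06) on the log2 scale of the authors' deposited table. Gng2, a gamma subunit, rose by 3.12 (SE 0.29, adjusted p = 7.7e-24) in the authors' deposited table, from an implied mean of 13.4 to 117. The beta subunit genes Gnb3 and Gnb5 fell by 1.51 (SE 0.18, adjusted p = 8.5e-15) and 0.59 (SE 0.11, adjusted p = 7.2e-07) in the authors' deposited table. Gnb1 and Gnb2, beta subunit genes with higher means (1152 and 1506) and named after their values were seen, rose. Their log2 fold changes in the authors' deposited table were 0.40 (SE 0.11, adjusted p = 9.6e-04) and 0.29 (SE 0.06, adjusted p = 1.3e-05). Both calls held with equal totals. Gnai3 and Gnao1, named after their values were seen as the remaining called genes of the inhibitory class, rose by 0.63 (SE 0.12, adjusted p = 4.9e-06) and 1.32 (SE 0.28, adjusted p = 2.9e-05) in the authors' deposited table. Gnal, an alpha subunit of the stimulatory class also named after its value was seen, rose by 0.34 (SE 0.12, adjusted p = 0.0124) in the authors' deposited table. Called rises thus lay in both classes. The inhibitory Gnai1 had a log2 fold change of -0.21 (SE 0.14, adjusted p = 0.24) in the authors' deposited table, which turned to 0.07 with equal totals. With equal totals 12 of the 22 were higher and 2 lower, beside 40.4% and 6.60% of all genes tested, and the calls on Gnai2, Gnai3, Gnao1, Gnal, Gng2, Gnb3 and Gnb5 held.

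Adcy5 and Adcy6 encode the closely related cyclases that make most cAMP in cardiomyocytes, and at the authors' scaling Adcy5 was called and Adcy6 was not. Adcy5 (chr16:35154877-35305738, plus strand) went from an implied mean of 1077 to 591. The authors' deposited table gave a log2 fold change of -0.87 (SE 0.26), with a 95% interval from -1.37 to -0.36 and an adjusted p of 0.00379, a fall of 45.1%. With equal totals the value was -0.58 and the adjusted p 0.0537, so that the call was lost under that scaling. Adcy6 (chr15:98589973-98610076, minus strand) had implied means of 1583 and 1848 and a log2 fold change of 0.22 (SE 0.13, adjusted p = 0.186) in the authors' deposited table, with a 95% interval from -0.03 to 0.48. With equal totals Adcy6 was called instead, at 0.51 (adjusted p = 3.6e-04 from the shifted values of the authors' deposited table). The intervals of the 2 cyclase genes did not overlap, and adding a constant for scaling moves both alike. Per kilobase of transcript, the implied mean of Adcy6 was 1.71 times that of Adcy5 with GFP alone and 3.63 times with dnMKL1. Of 6 other cyclase genes with an adjusted p-value, 2 were higher and 1 lower, beside 16.6% and 17.4% of all genes tested. Their median log2 fold change was -0.16, and it was 0.08 among the 5 with a mean of at least 10. With equal totals 2 of the 6 were higher and 0 lower, beside 40.4% and 6.60% of all genes tested. Adcy7 rose by 1.73 (SE 0.23, adjusted p = 6.4e-12) in the authors' deposited table, from an implied mean of 26.2 to 87.0. Adcy9 had a mean of 284 and fell by 0.40 (SE 0.14, adjusted p = 0.0128) in the authors' deposited table, a call that was lost with equal totals (-0.11, adjusted p = 0.544). Adcy4 had a mean of 81.2 and a log2 fold change of 0.08 (SE 0.38, adjusted p = 0.910) in the authors' deposited table.

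Of the phosphodiesterase genes, Pde3a rose and Pde4d was not called. Pde3a (chr6:141249269-141507448, plus strand), whose product hydrolyses cAMP and is inhibited by cyclic GMP, went from an implied mean of 957 to 1338. The authors' deposited table gave it a log2 fold change of 0.48 (SE 0.14, adjusted p = 0.00188), a rise of 39.7% with a 95% interval from 16.2% to 67.9%. Exons of the antisense gene Gm28523 overlap Pde3a, and without a stated use of strand reads of both cannot be told apart. Pde4d (chr13:108449948-109953461, plus strand), a cAMP-specific enzyme found in complexes with beta receptors and calcium-handling proteins, had implied means of 256 and 228. For it the authors' deposited table gave a log2 fold change of -0.16 (SE 0.14, adjusted p = 0.428), with a 95% interval from -0.44 to 0.12, and with equal totals it turned to 0.13 (adjusted p = 0.501). The intervals of Pde3a and Pde4d did not overlap. Of 16 other phosphodiesterase genes 1 was higher and 1 lower, or 12.5% against 34.1% of all genes tested, and their median log2 fold change was -0.01. Pde1c, a calcium-activated enzyme, fell by 0.87 (SE 0.19, adjusted p = 2.5e-05) in the authors' deposited table, from an implied mean of 1634 to 891. Pde7b rose by 0.62 (SE 0.16, adjusted p = 5.2e-04) in the authors' deposited table. Pde4b and Pde4a had means of 1209 and 1401 and log2 fold changes of -0.32 (SE 0.16, adjusted p = 0.125) and 0.16 (SE 0.12, adjusted p = 0.318) in the authors' deposited table. With equal totals 5 of the 16 were called, 4 higher and 1 lower, while 47.0% of all genes tested were called, 40.4% higher and 6.60% lower.

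**Figure D3:**
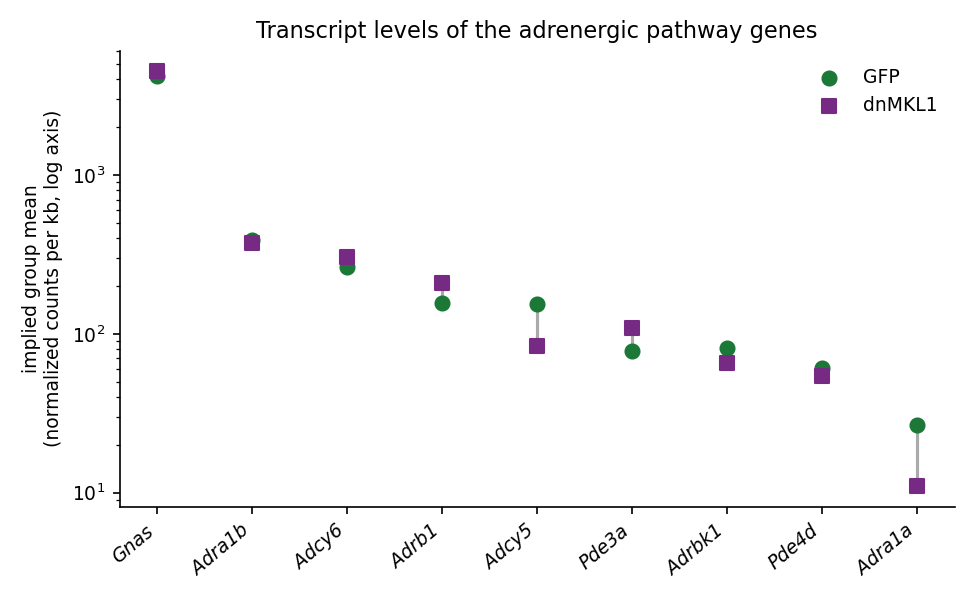
Implied group means of the 9 genes in normalized counts per kilobase of the longest transcript (vertical log axis), for GFP (circles) and dnMKL1 libraries (squares), ordered by the mean over both groups; no error is drawn. Gnas stands above the others, Adra1a is lowest in both groups, and Adcy5 and Adra1a show the widest downward gaps from GFP to dnMKL1.

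Levels of the 9 genes were compared per kilobase of the longest GENCODE transcript. Averaged over both groups, Gnas came first at 4320 normalized counts per kilobase, followed by Adra1b at 381, Adcy6 at 284 and Adrb1 at 182. Adcy5 at 119, Pde3a at 93.3, Adrbk1 at 73.6 and Pde4d at 57.5 came next, and Adra1a was last at 18.8. Neighbours from Adcy5 to Pde4d in that order had overlapping 95% intervals, and the other neighbours did not. The order within a group differed from this: with GFP alone Adrbk1 (81.3) stood above Pde3a (77.8) and Adrb1 (157) was close to Adcy5 (154), and with dnMKL1 Pde3a (109) stood above Adcy5 (84.3). Per kilobase, Adra1b had 14.6 times the level of Adra1a with GFP alone and 34.1 times with dnMKL1. Its level was 2.47 and 1.81 times that of Adrb1. The order of the averages over both groups was the same per kilobase of all merged exons, where Gnas was at 1524 and its ratio to Adcy6 went from 15.2 to 6.03. The ratio of Pde3a to Pde4d went from 1.62 to 4.47 and that of Adra1b to Adra1a from 20.3 to 40.8. Pde4d has 20 annotated transcripts and Adra1a has 6.

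**Figure D4:**
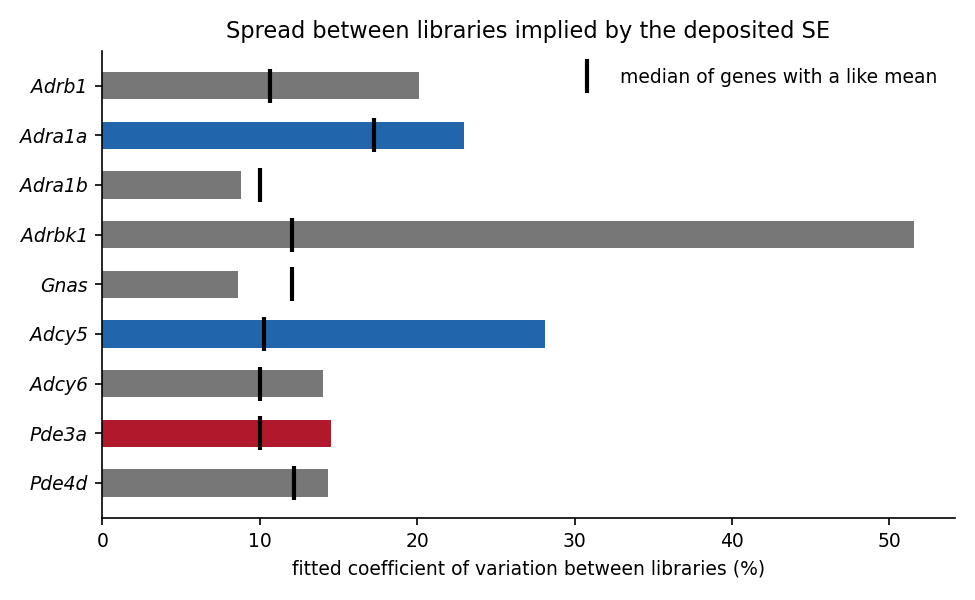
Fitted coefficient of variation between libraries of a group in percent (horizontal axis), derived from the deposited SE of each of the 9 genes (bars, coloured as in the plot of fold changes), with the median of genes whose mean lies within 2 times of it (black ticks). Adrbk1 at 51.6% stands far above its tick at 12.1%, and Adra1b and Gnas lie below theirs.

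The precision of the fold changes differed widely among the 9 genes, and each SE was larger than counting error alone would give. The fitted coefficient of variation between libraries, derived from the SE in the authors' deposited table, was 8.63% for Gnas, 8.81% for Adra1b, 14.1% for Adcy6, 14.4% for Pde4d and 14.5% for Pde3a. It was 20.1% for Adrb1, 23.0% for Adra1a, 28.1% for Adcy5 and 51.6% for Adrbk1. For Adrbk1 counting error would give an SE of 0.06, against the 0.47 in the authors' deposited table, and 98.2% of 4092 genes with a like mean had a smaller SE. Adcy5 and Adrb1 also had larger SEs than most genes of like mean, at percentiles 96.8 and 90.6. Which libraries carry this spread was not analysed here, and so no value could be given without 1 library. For Adra1a, the least abundant of the 9 at about 803 normalized counts over all libraries, counting error gives an SE of 0.11 of the 0.24 in the authors' deposited table.

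Downstream of cAMP, called genes of protein kinase A and its anchors lay in both directions, at 44.4% and 35.7% of these lists against 34.1% of all genes tested. Of 9 protein kinase A subunit and inhibitor genes 1 was higher and 3 lower, with a median log2 fold change of 0.00. With equal totals 3 were higher and 1 lower, beside 40.4% and 6.60% of all genes tested. Prkar2a, a type II regulatory subunit, fell by 0.59 (SE 0.10, adjusted p = 1.7e-07) and Prkar1b, a type I subunit, rose by 1.33 (SE 0.24, adjusted p = 6.4e-07) in the authors' deposited table. Prkar1a, the most abundant of the 9 genes at a mean of 11993, had a log2 fold change of 0.00 (SE 0.08, adjusted p = 0.991) in the authors' deposited table. Pkig, an inhibitor of the kinase, fell by 0.41 (SE 0.11, adjusted p = 8.1e-04) in the authors' deposited table, a call lost with equal totals (-0.12, adjusted p = 0.374). Of 14 anchoring protein genes 2 were higher and 3 lower, among them Ezr at 0.52 (SE 0.08, adjusted p = 1.1e-09) and Akap7 at -0.68 (SE 0.12, adjusted p = 1.7e-07) in the authors' deposited table. Akap1 and Pde4dip, the other named members of that list, had log2 fold changes of -0.21 (SE 0.06, adjusted p = 0.00354) and -0.34 (SE 0.14, adjusted p = 0.0358) in the authors' deposited table, and with equal totals these were 0.07 and -0.06 and not called. The anchoring list then had 4 of 14 higher and 1 lower, beside the same 40.4% and 6.60% of all genes tested.

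Other proteins that bind cAMP stood out by their count, with 4 of 8 higher and 3 lower, or 87.5% called against 34.1% of all genes tested. Hcn2, a pacemaker channel opened by cAMP, went from an implied mean of 850 to 234, with a log2 fold change of -1.86 (SE 0.31, adjusted p = 5.2e-08) in the authors' deposited table. Rapgef4, which encodes the cAMP-activated exchange factor Epac2, fell by 0.83 (SE 0.19, adjusted p = 7.8e-05) and Popdc2, a cAMP-binding membrane protein, by 0.55 (SE 0.11, adjusted p = 9.1e-06) in the authors' deposited table. The 7 calls of this list held with equal totals. Among 18 substrates of the kinase and phosphatase genes 1 was higher and 7 lower, with a median of -0.17. The share called was 44.4%, against 34.1% of all genes tested. With equal totals 4 were higher and 2 lower, beside 40.4% and 6.60% of all genes tested. Hspb6 and Ryr2 fell by 0.80 (SE 0.11, adjusted p = 1.8e-12) and 0.78 (SE 0.16, adjusted p = 9.6e-06) in the authors' deposited table, and both calls held with equal totals. Ppp1cb, a catalytic subunit of protein phosphatase 1, fell by 0.38 (SE 0.08, adjusted p = 3.8e-05) in the authors' deposited table, a call lost with equal totals (-0.10, adjusted p = 0.358). Mybpc3 had a log2 fold change of -0.11 (SE 0.09, adjusted p = 0.356) in the authors' deposited table. Cardiomyocyte markers, which include Ryr2, Mybpc3 and other genes of this list, were mostly lower as given above, and their part in these counts was not tested.

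On the Gq side, which the alpha-1 receptors use, 7 of 21 genes were higher and 1 lower, with a median log2 fold change of 0.34. The share called, 38.1%, was near the 34.1% of all genes tested. Rgs2, which limits Gq signalling, rose by 0.73 (SE 0.15, adjusted p = 1.8e-05) in the authors' deposited table, from an implied mean of 1755 to 2918. Itpr1, Prkcd and Dgkz rose by 0.61 (SE 0.12, adjusted p = 5.6e-06), 1.11 (SE 0.23, adjusted p = 1.1e-05) and 0.37 (SE 0.08, adjusted p = 1.4e-05) in the authors' deposited table. These 4 calls held with equal totals, under which 12 of the 21 were higher and 0 lower, beside 40.4% and 6.60% of all genes tested. Of 9 genes of the CREB family and its coactivators 2 were higher, Crtc2 by 0.52 (SE 0.12, adjusted p = 1.3e-04) and Crem by 0.59 (SE 0.19, adjusted p = 0.00651) in the authors' deposited table, while Creb1 had 0.08 (SE 0.10, adjusted p = 0.604) and Creb3l2 0.26 (SE 0.16, adjusted p = 0.210). The share called, 22.2%, was below that of all genes tested, and with equal totals 7 of these 9 were higher, beside 40.4% of all genes tested. Of 10 transcripts known to respond to cAMP 4 were higher and 1 lower, beside 16.6% and 17.4% of all genes tested. Rgs2 and Crem were counted here too. The lower gene, Ppargc1a, was named after its value was seen. Its log2 fold change was -0.33 (SE 0.10) in the authors' deposited table and -0.04 with equal totals, where the call was lost. With equal totals 4 of the 10 were higher and 0 lower, beside 40.4% and 6.60% of all genes tested. Nr4a2, an immediate early gene, rose by 2.24 (SE 0.65, adjusted p = 0.00292) in the authors' deposited table, from an implied mean of 68.7 to 324, whereas Dusp1 had 0.22 (SE 0.39, adjusted p = 0.730).

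**Figure D5:**
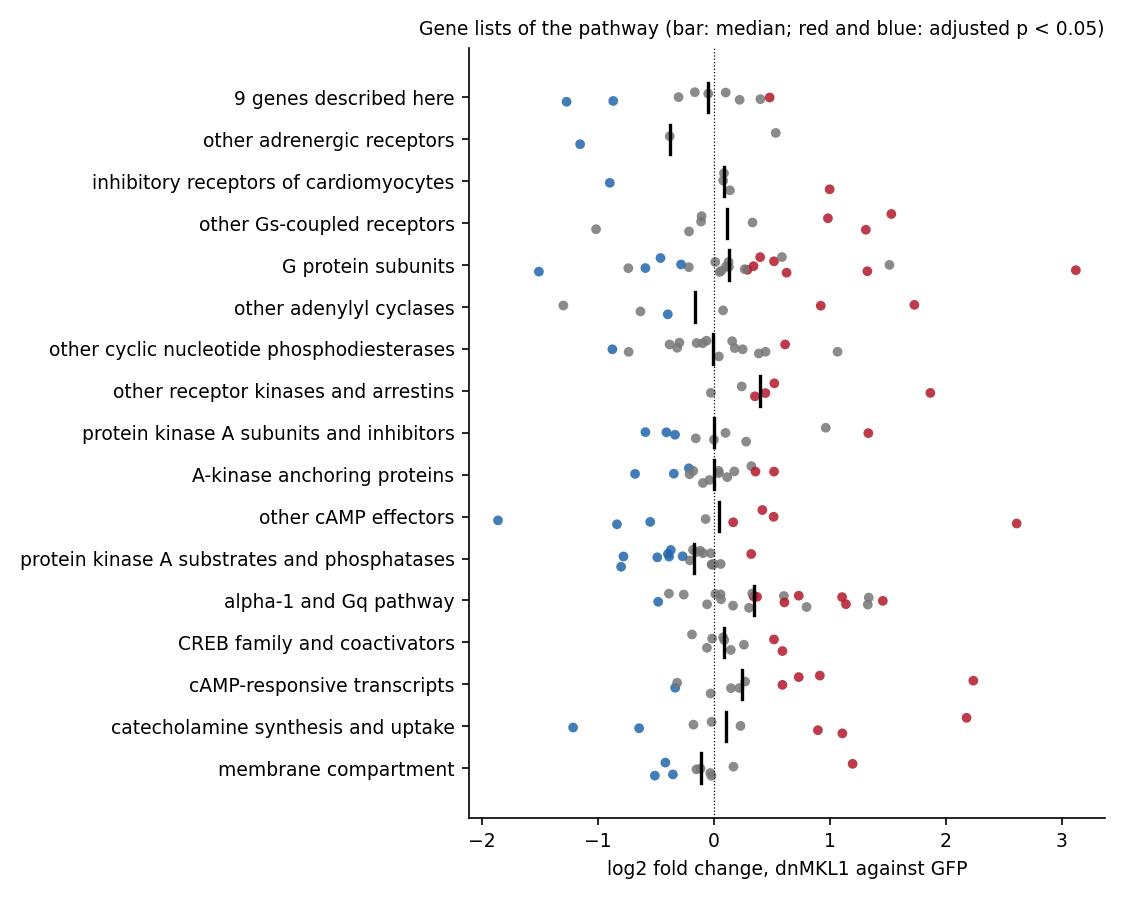
Log2 fold change (horizontal axis) of each gene with an adjusted p-value in the 9 genes described here and 16 further lists of the pathway (rows), from the authors' deposited table; red and blue points are higher or lower at an adjusted p-value under 0.05, grey the others, and black bars are medians. The receptor kinase and arrestin list has 4 red and 0 blue points, and Gng2 at 3.12 lies farthest to the right among the G protein genes.

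Receptors that act on the same cyclases through other ligands were measured as well. Of 5 receptors of the inhibitory class 1 was higher and 1 lower: Npr3 had a log2 fold change of 1.00 (SE 0.40, adjusted p = 0.0392) and Oprd1, named as the remaining call after its value was seen, of -0.90 (SE 0.34, adjusted p = 0.027) in the authors' deposited table. Chrm2, the muscarinic receptor of cardiomyocytes, had a mean of 1357 and a log2 fold change of 0.09 (SE 0.11, adjusted p = 0.597) in the authors' deposited table. S1pr1 had 0.14 (SE 0.16, adjusted p = 0.560) in the authors' deposited table. With equal totals 4 of these 5 were higher and 0 lower, beside 40.4% and 6.60% of all genes tested. Of 8 other receptors coupled to the stimulatory G protein 3 were higher and 0 lower, or 37.5% called, near the 34.1% of all genes tested. Gcgr, the glucagon receptor gene, rose by 1.53 (SE 0.18, adjusted p = 8.5e-16) in the authors' deposited table, from an implied mean of 38.7 to 112. Pth1r, the parathyroid hormone receptor gene, rose by 0.98 (SE 0.13, adjusted p = 7.5e-13) in the authors' deposited table, and Calcrl had -0.11 (SE 0.29, adjusted p = 0.830).

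Of 8 genes for enzymes and transporters of catecholamines with an adjusted p-value, 3 were higher and 2 lower, or 62.5% called against 34.1% of all genes tested. Maoa and Maob, which encode the monoamine oxidases that degrade catecholamines, rose by 2.18 (SE 0.37, adjusted p = 4.8e-08) and 0.90 (SE 0.14, adjusted p = 1.3e-09) in the authors' deposited table. Ddc, the decarboxylase that makes dopamine, rose by 1.11 (SE 0.15, adjusted p = 5.1e-12) in the authors' deposited table, and all 3 calls held with equal totals. Dbh, which makes noradrenaline from dopamine in sympathetic nerves, fell by 0.64 (SE 0.26, adjusted p = 0.0402) in the authors' deposited table at a mean of 80.7, a call lost with equal totals (-0.35, adjusted p = 0.265). The other lower gene, the transporter Slc22a3, was named after its value was seen and fell by 1.21 (SE 0.44, adjusted p = 0.0194) in the authors' deposited table, a call lost with equal totals (-0.92, adjusted p = 0.0697). Th, the first enzyme of the route and a defining marker of those nerves, had a mean of 0.145 in the authors' deposited table. With equal totals 4 of the 8 were higher and 0 lower, beside 40.4% and 6.60% of all genes tested. Of 9 genes of caveolae, flotillins and receptor sorting 1 was higher and 3 lower, with a median of -0.11, or 44.4% called against 34.1% of all genes tested. Cav3, the muscle caveolin, fell by 0.42 (SE 0.11, adjusted p = 8.5e-04), Murc (cavin 4) by 0.51 (SE 0.11, adjusted p = 1.5e-05) and the sorting nexin gene Snx27 by 0.35 (SE 0.08, adjusted p = 1.7e-04) in the authors' deposited table. None of the 3 was called with equal totals, where the values were -0.13, -0.22 and -0.06. Under that scaling 3 of the 9 were higher and 0 lower, beside 40.4% and 6.60% of all genes tested. Flot1 had a log2 fold change of -0.15 (SE 0.08, adjusted p = 0.128) in the authors' deposited table.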

How the data were processed

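RNA from sorted cardiomyocytes of 5 GFP and 5 dnMKL1 samples was sequenced after SMART-Seq v4 amplification and Nextera XT library preparation, per the labels' protocols. Per the series' design text the authors aligned reads with STAR and counted them with featureCounts, and STAR 2.5.3a, Subread 1.5.2, CASAVA 1.8 and the build mm10 are listed in the submitters' processing notes. Neither the gene annotation nor whether counting used strand is given in the sources used here. The deposited table has, per the file headers, the columns of a differential expression result. Its base mean is a signal that the authors made as the mean of counts after division by size factors. Fold change and SE were deposited in log2 units, and their ratio gave the Wald score that the authors deposited (largest gap 1.1e-05), and the deposited p-value and its Benjamini-Hochberg adjusted value were recomputed with largest gaps of 4.1e-07 and 1.4e-07.

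The authors' adjusted p-value under 0.05 was the call. Nothing was fitted again, so the only error used for a gene is that in its SE, and each p-value sets the fold change against that SE. Implied group means, 95% intervals and promoter searches were computed with Python 3.11.15, numpy 2.4.6, pandas 2.3.3 and scipy 1.17.1, and figures with matplotlib 3.10.9. Adjustment and shifts were tested on simulated data. Size factors came from genes with 1 read in 1 library, and a library's total is its factor times its group's summed implied means. They cannot be matched to replicate numbers. Coefficients of variation solve the negative binomial SE for its dispersion. Reads carry no molecular identifiers, so counting error covers reads only. Positions and transcript lengths are from GENCODE M21 (GRCm38, the sequence of mm10). Adcy6, Pde3a and Gnas have exons that overlap antisense genes.

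The 9 genes and all lists were chosen with earlier results of these data known. Named genes are taken from the 9, the 3 genes per list with the smallest adjusted p among those with a mean of at least 50, the gene with the highest mean in each list, and every gene of lists with 6 or fewer; others are marked in the text, and some that the rule names are not reported here. The list of imprinted neighbours of Gnas had 1 listed gene, Nespas. With 1 comparison and no values per library, no likeness of pattern between genes was computed. Alternatives were other thresholds, means, fold minimums, scalings and transcript lengths.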

Additional observations from a re-analysis of the deposited data

How the results depend on the processing

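No paired analysis was possible because the table gives 1 mean per gene, with no column that carries a replicate number. For the same reason no fit left out a replicate, and the planned coding length was not run because no protein table was used here. The weight of single libraries was therefore not tested, above all for Adrbk1, Adcy5 and Adrb1 with their large SEs. The merged exon length and the trimmed scaling of lists were chosen after seeing the data.

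The 4792 called genes stayed within 1.5 times under 8 of 10 alternatives, and became 2735 and 942 with a minimum absolute log2 fold change of 0.5 and 1, since fewer genes can pass. All 9 genes kept direction and call with a minimum mean of 10, with every p-value adjusted together, with centring on the median and at an adjusted p under 0.01, and so did 8 with a minimum mean of 100, which leaves out Adra1a. At an adjusted p under 0.1 Adrb1 (0.40) was called as well. The fold minimum of 0.5 removed Pde3a (0.48), and that of 1 removed Pde3a (0.48) and Adcy5 (-0.87), which left 1 called gene, Adra1a. Equal totals, which add 0.29, gave 6 called genes: Adrb1 (0.69), Adcy6 (0.51) and Gnas (0.39) became called, Adra1b (0.24) changed sign and became called, Pde4d (0.13) changed sign without a call, and Adcy5 (-0.58) was lost. Equal totals without Mkl1 and the 10 most abundant genes add 0.21 and also gave 6, with Adrb1 (0.61), Adcy6 (0.43) and Gnas (0.31) called, and Adra1b (0.16) and Pde4d (0.04) changed in sign but not called. Each scaling was applied as a constant shift of all log2 fold changes with the deposited SEs kept. Any effect of rescaling single libraries on the SEs was therefore not covered. Which scaling is closer to the RNA per cell was not tested. Of 16 other lists, counts of called genes stayed within 1.5 times in 16 with a minimum mean of 10, in 13 with equal totals and in 12 with the trimmed totals.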
